A study of Mus musculus and Homo sapiens with 47 samples.

Results

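Goblet cells are the mucus-secreting cells of the intestinal epithelium. The 7 genes of mucus and its production followed here were Muc2, Fcgbp, Clca3, Zg16, Tff3, Spink4 and Agr2. They were taken as a fixed list by gene symbol, and all 7 were found among the 24014 genes of the bulk mouse count table and among the 24052 genes of the single-cell matrices. Clca3 is the older symbol for the gene that RefSeq now calls Clca1 (gob-5), and the row named Clca1 in these files is a different gene. The other 6 symbols matched RefSeq directly.

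The study sorted intestinal stem cells of adult mice in which Eed, a core subunit of Polycomb repressive complex 2 (PRC2), could be deleted, and followed them over time. All groups used here share a genotype, Eed F/F; Lgr5EGFP-IRES-CreERT, on a B6;129 mixed background, so the Cre and GFP are driven from Lgr5, a gene of crypt base stem cells. All mice were given tamoxifen (1 to 2 mg, daily for 5 days, alternate-day dosing thereafter). Epithelial cells positive for GFP were purified by flow cytometry from the proximal part of the intestine. Day 9 had 3 bulk libraries, days 14 and 21 had 2 each, and day 30 had 1. Droplet single-cell libraries came from days 7, 12 and 16, with 1 library a day. No bulk library from mice with intact Eed was used, so every bulk comparison is between days after the same treatment. What the days were counted from is not given in the labels. They call the bulk libraries biological replicates, except day 14 replicate 2, whose title gives only a replicate number. Separate animals are not named, so p-values measure only the spread between these libraries.

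In the mucus layer, MUC2 forms the polymer that gives the gel its structure. FCGBP is a large secreted protein found with it, CLCA1 (the product of Clca3) is a secreted metalloprotease that acts on the gel, and ZG16 is a lectin that binds bacterial cell walls. TFF3 is a trefoil peptide linked to epithelial repair, SPINK4 is a small Kazal-type peptide, and AGR2 is a disulfide isomerase of the endoplasmic reticulum that goblet cells need to fold MUC2. Goblet cells arise from the same ATOH1-dependent secretory branch as Paneth cells, the antimicrobial cells of the small intestinal crypt.

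Bulk libraries held 21328684 to 27900351 counts each, and the 7 genes together took 0.455% to 1.54% of them. Eed itself was counted at 34.2 to 46.3 CPM (counts per 1000000 counts, on library sizes scaled by the TMM method) at days 9, 21 and 30 and at 81.5 and 86.1 CPM at day 14. The labels used here do not give the deleted exons, so a count over the whole gene does not check the deletion. The 2 day 14 libraries stood apart, as only 14988 and 13707 genes had a count there and 16163 to 16952 had one elsewhere. The labels of day 14 replicate 2 point to another count file, and its column was matched by title. The 2 day 21 libraries differed from each other more than any other pair (chi-square per degree of freedom 85.1, against 9.35 to 40.7). The Paneth list of 17 genes summed to 14879 CPM in day 21 replicate 1 and 2976 CPM in replicate 2, and the enterocyte list of 15 genes to 12321 and 4184 CPM.

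Promoter sequence was at hand for Muc2 and Fcgbp, which fell together at day 14, and for Agr2, which did not. The 250 bases before each start are shown 5′ to 3′ from RefSeq (GRCm38.p6, plus strand, matched by symbol; the count files name mm9), with capitals marking CAGCTG, an E-box of the kind that basic helix-loop-helix factors bind, and TATAAA. They lie at chr7:141690090-141690339 for Muc2, chr7:28070986-28071235 for Fcgbp and chr12:35992675-35992924 for Agr2.
Muc2: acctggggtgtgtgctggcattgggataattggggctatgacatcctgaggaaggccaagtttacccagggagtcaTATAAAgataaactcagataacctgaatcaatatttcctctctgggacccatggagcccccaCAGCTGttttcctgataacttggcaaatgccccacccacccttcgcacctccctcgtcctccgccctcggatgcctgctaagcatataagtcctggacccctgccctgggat
Fcgbp: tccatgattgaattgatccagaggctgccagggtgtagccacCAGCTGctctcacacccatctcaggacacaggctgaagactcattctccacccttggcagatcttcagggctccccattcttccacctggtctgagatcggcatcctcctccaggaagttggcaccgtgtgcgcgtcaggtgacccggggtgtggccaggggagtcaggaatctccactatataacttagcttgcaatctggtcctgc
Agr2: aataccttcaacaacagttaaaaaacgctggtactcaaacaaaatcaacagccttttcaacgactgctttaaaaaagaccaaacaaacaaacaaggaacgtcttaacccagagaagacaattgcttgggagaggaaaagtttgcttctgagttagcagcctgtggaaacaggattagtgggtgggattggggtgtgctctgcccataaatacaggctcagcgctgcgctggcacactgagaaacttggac
CAGCTG stood 112 bases before the start in Muc2 and 208 bases before it in Fcgbp, and was not in the Agr2 window. Of 32851 mouse promoters of the same length, 4271 hold CAGCTG. The motif TATAAA, searched on both strands, was in the Muc2 window alone, 174 bases before the start, and is in 4063 of the 32851 promoters. The forkhead motif TGTTTAC, searched on both strands, was in none of these 3 windows and is in 3.17% of the 32851 promoters. The windows held 4 (Muc2), 5 (Fcgbp) and 5 (Agr2) CpG dinucleotides, against a median of 6 over all promoters. A match is a string of letters in the window and not a measured binding site.

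At day 14 the gel-forming mucin and its partner were low while the other 5 genes were not. At day 9 Muc2 stood at 1060, 1495 and 1118 CPM, and at day 14 at 268 and 243 CPM. Every day 14 value lay below every day 9 value, a 4.79-fold fall (log2 difference -2.26, SE 0.24, edgeR quasi-likelihood adjusted p = 7.9e-05). Fcgbp was at 2987, 3336 and 3326 CPM at day 9 and at 1576 and 1583 CPM at day 14. Its groups did not overlap either (2.04-fold lower, log2 -1.03, SE 0.29, edgeR adjusted p = 0.0157). The share of all tested genes whose days separate in this way is not given here. Separation, here and at later days, therefore only describes the values of these genes. In bulk RNA, fewer cells of a type and less RNA per cell cannot be told apart.

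The other 5 genes gave no call between these days. Clca3 was at 597, 848 and 652 CPM at day 9 and 660 and 685 CPM at day 14, and Tff3 at 544, 769 and 547 CPM against 607 and 594 CPM. In both, the day 14 libraries fell within the day 9 range. Spink4 overlapped in the same way, at 836, 1463 and 923 CPM against 969 and 1086 CPM. Zg16 (118, 91.7 and 115 against 150 and 141 CPM) and Agr2 (356, 460 and 415 against 521 and 512 CPM) were slightly higher in both day 14 libraries, without passing the test (edgeR adjusted p = 0.458 and 0.250). So 2 of 7 were called lower and 0 higher. Over all 14692 tested genes 25.7% were called lower and 25.4% higher, 51.1% in either direction. The Fcgbp call was lost without either day 14 library (edgeR adjusted p = 0.0794 and 0.0919), whereas the Muc2 call held in every setting tried.

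**Figure D1:**
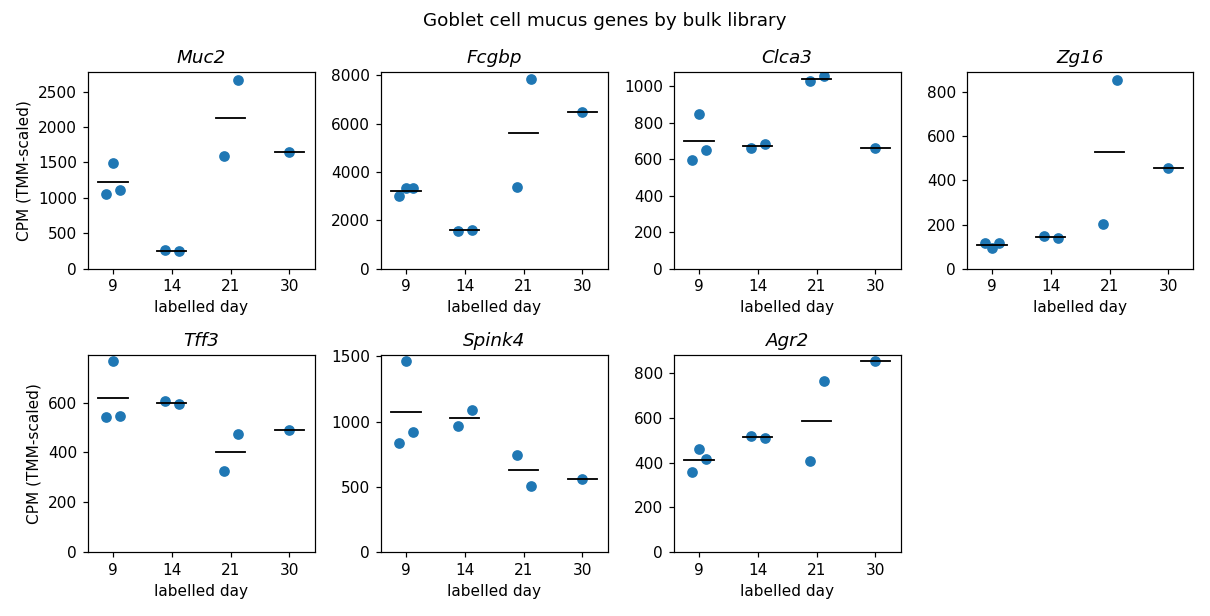
CPM (TMM-scaled, linear axes from 0) of the 7 genes in each bulk library by labelled day; each point is 1 library and each black line the mean of its day. Muc2 and Fcgbp are lowest in the 2 day 14 libraries, and the 2 day 21 libraries lie far apart for Zg16 (204 and 854 CPM).

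The median difference at day 14 fell with the span of the gene. Among genes whose span in the RefSeq annotation exceeds 50 kb the median log2 difference from day 9 was -0.36, and among those up to 5 kb it was 0.25 (3808 and 2006 genes; 99.4% of tested genes had a span). Muc2 spans 64.4 kb and Fcgbp 49.6 kb, and the 5 genes without a call span 2.5 to 28.2 kb. Fcgbp thus lies among the genes above 20 and up to 50 kb, as does Clca3 (28.2 kb). The median log2 difference of these 3893 genes was -0.038. Immune and stromal marker lists, at 30.6 to 39.2 and 15.7 to 20.5 summed CPM at day 9, were at 15.4 to 16.1 and 3.59 to 6.04 at day 14. The part of span, library or these cells in the Muc2 and Fcgbp result was not tested.

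By day 21 Muc2 was back above its day 9 level and Zg16 had risen most. Muc2 stood at 1597 and 2660 CPM, above all 3 day 9 libraries (1.74-fold, log2 0.80, SE 0.21, edgeR adjusted p = 0.0320). Clca3 was at 1026 and 1055 CPM, the closest pair of day 21 values among the 7 genes (1.49-fold, log2 0.57, SE 0.14, edgeR adjusted p = 0.0212). Zg16 was at 204 and 854 CPM, both above day 9 but far apart from each other (4.89-fold over day 9, log2 2.29, SE 0.45, edgeR adjusted p = 0.00951).

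Fcgbp was split in the same direction between the 2 libraries, at 3380 and 7827 CPM, and did not pass (edgeR adjusted p = 0.0721). Tff3, at 326 and 475 CPM, lay below every day 9 library, as did Spink4 at 743 and 507 CPM, but neither passed (edgeR adjusted p = 0.0520 and 0.0579). Agr2 overlapped with day 9, at 408 and 767 CPM. In all, 3 of 7 were called higher and 0 lower, beside 7.46% and 12.8% of all tested genes (20.2% in either direction). The Zg16 call alone held in every setting. The Muc2 call was lost without day 9 replicate 1 or 3, either day 14 library or day 21 replicate 2 (edgeR adjusted p = 0.0579 to 0.197), and the Clca3 call without day 9 replicate 1 or 3 or either day 21 library (0.0528 to 0.0669).

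Set against day 14, day 21 showed the 7 genes moving in 2 directions. Muc2 rose 8.33-fold (log2 3.06, SE 0.26, edgeR adjusted p = 1.7e-05) and Fcgbp 3.55-fold (log2 1.83, SE 0.31, edgeR adjusted p = 0.00111). Zg16 rose 3.64-fold and Clca3 1.55-fold (edgeR adjusted p = 0.0132 and 0.00719). Spink4 and Tff3 fell, by 0.72 and 0.58 on the log2 scale (edgeR adjusted p = 0.0456 and 0.0392), and Agr2 was not called. The 4 rises and 2 falls compare with 29.5% and 29.1% of all tested genes (58.6% in either direction). The 2 falls were lost in several settings, such as library-size scaling (edgeR adjusted p = 0.105 and 0.115) and RLE scaling (0.0689 and 0.0535), and the Zg16 rise without either day 14 library (0.0648 and 0.0823).

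The single day 30 library was high in Zg16 and Agr2. Zg16 was at 458 CPM (4.24-fold over day 9, log2 2.08, SE 0.53, edgeR adjusted p = 0.0409), and Agr2, the folding enzyme, at 856 CPM, the highest of the 8 libraries (2.09-fold, log2 1.06, SE 0.27, edgeR adjusted p = 0.0428). Fcgbp, at 6500 CPM, lay above every day 9 library and did not pass (edgeR adjusted p = 0.0926). Muc2 was at 1650, Clca3 at 664, Tff3 at 489 and Spink4 at 560 CPM. Thus 2 of 7 were called higher and 0 lower, beside 3.67% and 6.62% of all tested genes (10.3% in either direction). Day 30 was tested with the spread of the other days, and both calls were lost without any 1 of the 3 day 9 or 2 day 14 libraries (edgeR adjusted p = 0.0509 to 0.106).

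Between day 30 and day 21 edgeR called 0 of 7, and 0% of all tested genes. At an unadjusted p under 0.05 there were 1218 genes, among them Clca3 alone of the 7 (log2 -0.65, edgeR unadjusted p = 0.00871, adjusted p = 0.375). DESeq2 called 299 genes, Clca3 again the only one of the 7 (adjusted p = 0.00595).

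**Figure D2:**
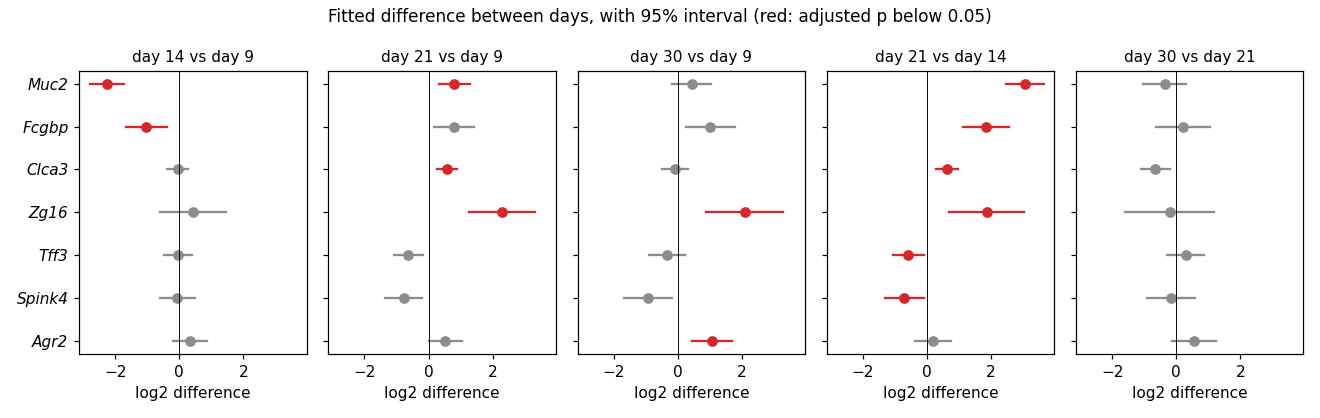
Fitted log2 difference (later day minus earlier day, edgeR) with its 95% interval for each gene in the 5 comparisons; red marks an adjusted p below 0.05 and grey the rest. Muc2 and Fcgbp lie to the left at day 14 against day 9, and Spink4 and Tff3 lie to the left where Muc2, Fcgbp, Clca3 and Zg16 lie to the right at day 21 against day 14.

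Spink4 lay close to the Paneth list. Its lowest values, 507 and 560 CPM, were in day 21 replicate 2 and day 30, where the Paneth list summed to 2976 and 1999 CPM. Its highest, 1463 CPM, was in day 9 replicate 2, where that list summed to 27503 CPM. Zg16 was arranged the other way, at 854 and 458 CPM in the 2 libraries with the lowest Paneth sums and at 91.7 CPM in the library with the highest. The Paneth markers Lyz1 (lysozyme) and Defa5 (a defensin) were lower in the 1 day 30 library than at day 9 (log2 -3.84 and -8.96). Over the 16 tested genes of the Paneth list the median log2 difference was -3.40, against -0.009 over all tested genes. Not every gene of that list was lower. The part of Paneth cell content in the Spink4 and Zg16 values was not tested.

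**Figure D3:**
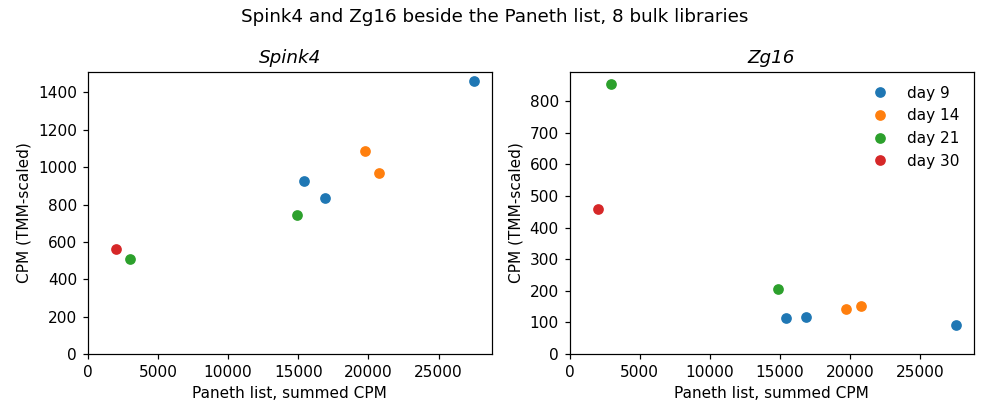
CPM of Spink4 and Zg16 in each of the 8 bulk libraries (points, coloured by day) against the summed CPM of the Paneth list, on linear axes from 0. Spink4 is highest at the library with the highest Paneth sum (1463 CPM), and Zg16 is highest at the libraries with low sums (854 and 458 CPM).

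Genes that surround mucus production changed in both directions at day 14, as did the tested genes at large. Over all tested genes 25.7% were called lower and 25.4% higher, 51.1% in either direction. Of 23 other goblet cell genes, 8 fell and 2 rose against day 9 (median log2 -0.20, against -0.04 over all tested genes). The falls included Sytl2, a vesicle trafficking gene (log2 -1.66), Capn9 (log2 -1.65) and Spdef, a goblet cell transcription factor (log2 -0.84), with edgeR adjusted p of 8.9e-05, 0.00222 and 0.00523. Foxa3, another goblet cell transcription factor, rose (log2 0.60, edgeR adjusted p = 0.00215). Of 24 genes of folding and the endoplasmic reticulum, 9 rose and 4 fell (median log2 0.33). Xbp1, a transcription factor of the unfolded protein response, rose by a log2 of 0.69, and Ern1, the sensor kinase upstream of it, fell by 1.19 on the log2 scale (edgeR adjusted p = 0.000511 and 0.000121).

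Other mucins and relatives of the 7 genes were lower at day 14 where they were called, beside the same 25.7% lower and 25.4% higher of all tested genes. Of 6 tested other mucins 4 fell and 0 rose. Among them were the membrane mucins Muc4 (log2 -1.03) and Muc13 (log2 -0.54), with edgeR adjusted p of 0.00148 and 0.0293. The remaining falls, in Muc6 and Muc5ac, were near the floor, with means of 0.674 and 0.812 CPM at day 9 and 0.0971 and 0 CPM at day 14. Of 8 tested relatives 3 fell and 0 rose: the Clca family genes Clca1, Clca4 and Clca2 (log2 -2.54, -0.69 and -1.04). These are close paralogs of Clca3, and how the counting shared reads between them is not given in the sources used here. Of 22 mucin glycosylation genes 7 rose and 4 fell, with B3gnt3, which extends mucin glycans, at a log2 of 1.07 (edgeR adjusted p = 0.00222).

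At day 21 against day 9, 5 of the 23 other goblet cell genes rose and 0 fell, beside 7.46% and 12.8% of all tested genes. Creb3l1, a transcription factor of secretory cells, rose by a log2 of 0.93 and Scin by 0.68 (edgeR adjusted p = 0.0108 and 0.00661). Of 22 mucin glycosylation genes 4 rose and 0 fell, and of 6 tested other mucins 2 rose and 0 fell. The sialyltransferase gene St3gal4 rose by a log2 of 1.75 and the membrane mucin gene Muc4 by 1.69 (edgeR adjusted p = 0.00178 and 0.00026). In the single cells described below, St3gal4 led an enterocyte-like cluster. The part of enterocyte content in its rise was not tested. Of the 17 regulators of secretory fate 0 were called at day 21 against day 9. The 1 day 30 library was tested with the spread of the other days. There Atoh1, the master regulator of the secretory branch, stood higher than at day 9 (log2 0.84). The median log2 difference was 0.04 over the 17 regulators and 0.40 over the 23 other goblet cell genes, against -0.009 over all tested genes. Ang4, an antimicrobial gene of goblet and Paneth cells, was called lower (log2 -5.30, edgeR adjusted p = 0.0370). Over all tested genes, 3.67% were called higher and 6.62% lower at day 30.

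Over the 8 libraries, the 5 genes most like Muc2 by Pearson correlation of log2(CPM + 1) were Plekha6, Kmt2d, D10Bwg1379e, 2310067B10Rik and Sytl2 (r = 0.990 to 0.993). Of the other 6 genes, Fcgbp was closest to Muc2 (r = 0.92) and Spink4 farthest (r = -0.51). These values describe 8 libraries that fall into days and are not a test.

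Single-cell data showed which cells held the transcripts. After filtering, 3828, 4685 and 2768 cells remained at days 7, 12 and 16, with medians of 7957, 7560 and 11905 unique molecular identifiers (UMIs, 1 per captured transcript). Levels in cells are given as UMI CPM, the gene's UMIs over all UMIs of the cells named, on the same scale and without TMM. The libraries shared 1 to 4 cell barcodes per pair. Cells were clustered without the 7 genes, and 1 of 20 clusters was called goblet-like. Its top 10 genes by fold were Guca2a, Mptx1, Scin, Ccl9, Ccl6, Rep15, Ramp1, Tpsg1, Klk1 and Reg4, of which 5 (Scin, Ccl9, Rep15, Tpsg1 and Klk1) are on the goblet marker list and 1 (Mptx1) on the Paneth list. Mptx1 was at 9983 UMI CPM in the goblet-like and 14583 in the Paneth-like cells of day 16. The Paneth-like cluster was led by defensin genes, but goblet list genes were raised in it too. Genes counted as raised were at least 2-fold over all other cells and at 10 UMI CPM or more. In the Paneth-like cluster these were 18 of the 23 goblet list genes and all 17 Paneth list genes. In the goblet-like cluster they were 22 of the 23 and 8 of the 17.

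Goblet-like cells were 12 of 3828 at day 7, 15 of 4685 at day 12 and 260 of 2768 at day 16. As shares these are 0.313% (95% Clopper-Pearson interval 0.162 to 0.547), 0.320% (0.179 to 0.528) and 9.39% (8.33 to 10.5). Paneth-like cells were 127, 39 and 32. With at most 10% mitochondrial UMIs, a limit applied to the shares after seeing the data, goblet-like cells were 0.375%, 0.311% and 24.1% of the cells left. There was 1 library per day, so no test between days was possible, and intervals cover counting error only. Goblet-like cells of day 16 held Lgr5, the gene of the sort, at 12.2 UMI CPM. The split between these classes depended on the clustering: with fewer clusters, with the 7 genes included or with only cells of 5000 or more UMIs, both kinds fell into 1 cluster. At day 16 the median share of a cell's UMIs in defensin genes was 0.0482% in the goblet-like and 19.0% in the Paneth-like cells. At day 7 these medians were 0.00278% and 1.06%.

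Summed, the 7 genes stood higher in the goblet-like than in the Paneth-like cells, at 45422, 98710 and 53562 against 18013, 11045 and 28050 UMI CPM at days 7, 12 and 16. They had not been used to form the clusters. Single genes differed. Spink4 was higher in the Paneth-like cells at days 7 and 16. Zg16 at day 7 was at 4397 UMI CPM in 4 enterocyte-like cells against 3367 in the goblet-like ones. All 329 Zg16 UMIs of those 4 cells lay in 1 of them. At day 16 the goblet-like cells held 87.1% of all UMIs of the 7 genes, at day 12 62.1% and at day 7 17.2%. Paneth-like cells held 8.54%, 18.1% and 70.6%. The goblet-like and Paneth-like cells together held 95.6% at day 16, and between 94.5% and 95.6% under the other clusterings.

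**Figure D4:**
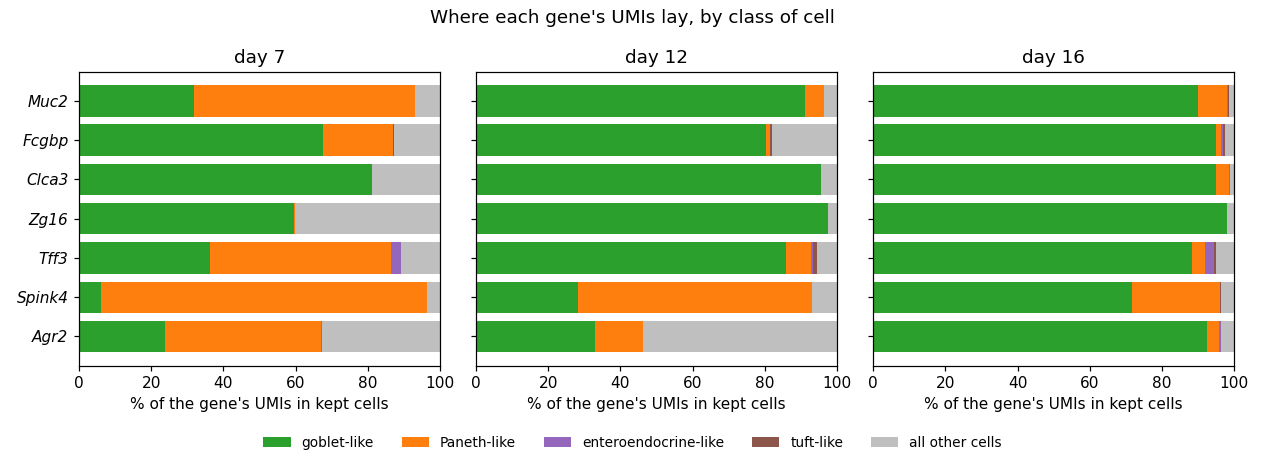
Share of each gene's UMIs (percent of those in kept cells) held by goblet-like, Paneth-like, enteroendocrine-like, tuft-like and all other cells, at days 7, 12 and 16. The Paneth-like part is largest for Spink4 (90.3% at day 7), and the part in all other cells is largest for Agr2 at day 12 (53.7%).

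Muc2 was in both secretory classes. At day 16 it was at 2884 UMI CPM in goblet-like and 1354 in Paneth-like cells, and at 4.45 in cells of no secretory class. At day 7, with few goblet-like cells, 61.4% of its UMIs were in Paneth-like cells and 31.7% in goblet-like ones. Fcgbp leaned further to the goblet-like cells, at 6265 against 477 UMI CPM at day 16.

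Zg16 differed most between the 2 classes. It was at 7566 UMI CPM in goblet-like cells of day 16, and the Paneth-like cells of all 3 days held 3 Zg16 UMIs between them. Those 198 cells stood at 1.08 UMI CPM. Clca3 was at 1739 in goblet-like cells of day 16 and at 363 in Paneth-like ones, where 6 of 32 cells held it. It had 0 UMIs in Paneth-like cells of days 7 and 12.

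Both genes were also uneven within the goblet-like class. At day 16, 33.5% of the 260 goblet-like cells held a Zg16 UMI and 50.8% a Clca3 UMI, while 92.7% held Tff3 and 91.5% Fcgbp. Thinned to 2000 UMIs per cell, the shares were 25.4% for Zg16 and 38.8% for Clca3. Of the 23492 Zg16 UMIs of day 16, 50% lay in 10 cells, against 48 cells for Muc2 and 71 for Tff3. The median goblet-like cell had 0 Zg16 UMIs and the highest had 219160 UMI CPM. Of the 260 cells, 76 held all 7 genes and 14 held none.

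**Figure D5:**
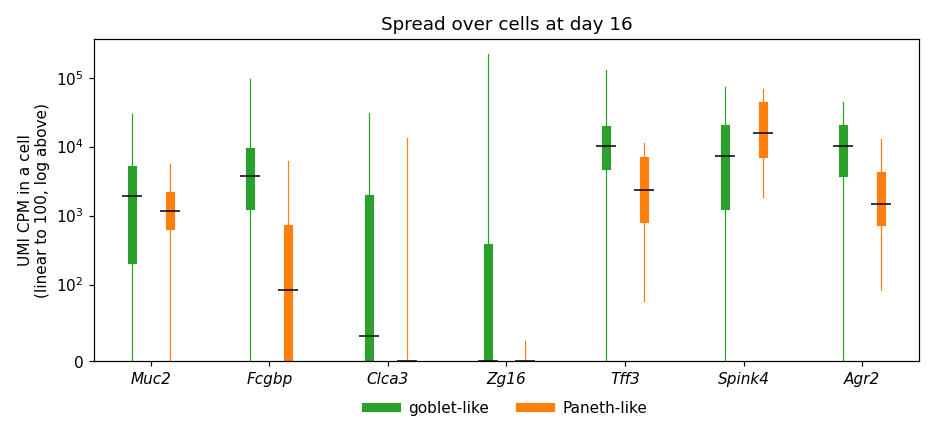
UMI CPM in each cell at day 16 in 260 goblet-like and 32 Paneth-like cells (axis linear to 100 and logarithmic above); thick bars span the quartiles, thin lines the range and black dashes mark the median. Zg16 has a median of 0 in both classes but reaches 219160 in a goblet-like cell, and Spink4 has the higher median in Paneth-like cells (15551 against 7322).

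At days 7 and 12 a few cells held 50% or more of the Zg16 and of the Clca3 UMIs. Zg16 had a UMI in 34 and 140 cells, and Clca3 in 9 and 24. For Clca3, 1 cell of day 7 and 3 cells of day 12 held 50%. At day 12 that number was 4 cells each for Muc2, Fcgbp and Tff3. At day 12, 1 cell held 45.2% of the 7431 Zg16 UMIs of the library, and 2 cells held 50% of them. At day 7, 1 cell held 329 of 950 Zg16 UMIs, and it was among the 4 enterocyte-like cells. The Zg16 levels of these days therefore rest on few cells.

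Spink4 was the gene most shared with Paneth-like cells. At day 16 it was at 20992 UMI CPM in Paneth-like and 11624 in goblet-like cells, and at day 7 Paneth-like cells held 90.3% of its UMIs. Tff3 was at 12196 in goblet-like and 2704 in Paneth-like cells of day 16. It was the 1 gene of the 7 with a level above 1000 in enteroendocrine-like cells (the hormone-secreting cells), at 1352 in 98 cells of day 16.

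At days 7 and 12 Agr2 was the gene of the 7 found in the largest number of cells outside the secretory classes. In cells outside the goblet-, Paneth-, enteroendocrine- and tuft-like classes it was at 97.0, 113 and 42.8 UMI CPM at days 7, 12 and 16, and these cells held 53.7% of its UMIs at day 12. Thinned to 2000 UMIs, 12.3%, 14.5% and 7.18% of them held an Agr2 UMI (34.8%, 34.5% and 30.3% unthinned). At day 16 Spink4, in 9.80% of them (39.8% unthinned) at 56.4 UMI CPM, was in more of these cells than Agr2, and Tff3, in 5.37% (19.6% unthinned), stood at 68.7 UMI CPM. In tuft-like cells, a chemosensory type, the thinned Agr2 shares were 0 of 40, 0 of 17 and 2 of 52 cells (10%, 0% and 13.5% unthinned). In enteroendocrine-like cells they were 2 of 120, 1 of 46 and 8 of 98 (10.8%, 4.35% and 14.3% unthinned). The Agr2 level there was 30.2, 33.6 and 209 UMI CPM. Median depths were 7979, 7560 and 12258 UMIs in the non-secretory and 6354, 6476 and 7986 in the tuft-like cells. In the enteroendocrine-like cells they were 4520, 4774 and 6699. By cluster, Agr2 was highest outside the goblet- and Paneth-like cells in an unnamed cluster of 370 cells led by Sox17, at 334 UMI CPM. That cluster held 288 cells of day 7, 82 of day 12 and 0 of day 16.

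Free RNA carried all 7 genes. In barcodes of at most 100 UMIs, too small to be cells, Agr2 was at 338, 318 and 810 UMI CPM at days 7, 12 and 16. It was highest at day 16, when the non-secretory cells had their lowest level. The part of free RNA in the levels of the non-secretory cells was not tested. Zg16 was at 138, 498 and 681 in free RNA against 11.8, 4.56 and 14.3 in non-secretory cells. Muc2, thinned to 2000 UMIs, was in 0.113%, 0.175% and 0.989% of non-secretory cells, where tuft-like cells gave 0 of 40, 0 of 17 and 2 of 52. Enteroendocrine-like cells gave 0 of 120, 0 of 46 and 3 of 98.

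Summed over all kept cells, every one of the 7 genes was higher at day 16 than at days 7 and 12. Muc2 was at 40.7, 26.1 and 276 UMI CPM at days 7, 12 and 16, Fcgbp at 38.8, 65.4 and 569, and Zg16 at 26.8, 184 and 666. Spink4 dipped most at day 12, at 739, 148 and 1398. Over all kept cells the day 16 level was 1.89-fold (Spink4) to 37.9-fold (Clca3) that of day 7, and for each of the 7 genes the ratio within goblet-like cells was smaller. There Muc2 was 1.06-fold, Fcgbp 1.13-fold and Agr2 0.822-fold its day 7 level, with counting intervals of 0.965 to 1.17, 1.06 to 1.21 and 0.789 to 0.858. Tff3 and Spink4 were each 1.23-fold (1.18 to 1.30 and 1.17 to 1.29), Clca3 was 2.44-fold (2.04 to 2.95) and Zg16 2.25-fold (2.07 to 2.45). These intervals treat UMIs of the same cell as independent and leave out the spread between cells. Of the 12 goblet-like cells of day 7, 5 held Clca3 and 7 held Zg16, and 1 cell held 83 of the 120 Clca3 UMIs. The 15 goblet-like cells of day 12 stood further from day 7, at 11.7-fold for Zg16 and 1.92-fold for Muc2. The goblet-like cells meanwhile numbered 12 at day 7 and 260 at day 16. At day 16 the level depended on the filter for mitochondrial UMIs: with at most 10%, Muc2 was at 753 and Zg16 at 1852 UMI CPM. That filter kept 208 of the 260 goblet-like cells and 627 of the 2476 cells that were neither goblet-like nor Paneth-like.

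The 10 genes most like the summed 7 over 11281 cells were Guca2a (Pearson r = 0.74), Ccl9, Tpsg1, Hpd, Ramp1, Guca2b, Selm, Gcnt3, Creb3l1 and Klk1 (0.61 to 0.65). Within the 260 goblet-like cells of day 16, Fcgbp and Tff3 varied most closely together (r = 0.91) and Zg16 and Agr2 least (r = 0.35). Cells share a library and differ in depth, so these are descriptions.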

How the data were processed

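Bulk values are raw whole-number counts for each gene, as the authors deposited them, and the single-cell matrices, also as deposited, give a UMI count for each pair of gene and barcode. The tools that the submitters' processing notes list are Cell Ranger 3.0.2, SICER 0.0.1, STAR 2.5.3a, Bowtie2 2.3.4.3 and DESeq2, with mm9 as build; the role of each is not given in the sources used here. Of the bulk columns, 1 was left out because the day in its name is in no sample label, and day 30 replicate 2, which no column name matched, was not analysed here. Day 14 replicate 2 was matched by title, although its labels point to another count file. The 7 genes and all gene lists were chosen with earlier results of these data known.

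All 8 bulk libraries entered 1 edgeR 4.0.16 fit (R 4.3.3) with a mean per day, after filterByExpr and TMM. Quasi-likelihood p-values were adjusted by Benjamini-Hochberg over 14692 genes and called at 0.05; DESeq2 1.42.0 was an alternative. The fit was tested on simulated data. Replicate numbers did not pair the samples. Kept cells had more than 2532, 2179 and 2812 UMIs at days 7, 12 and 16, no fewer than 500 genes and no more than 20% of UMIs from mitochondrial genes. They were clustered in scanpy 1.11.5 (Leiden resolution 1, 2000 variable genes, 30 components) and named from marker lists. The doublet caller Scrublet failed (1 of 11281 cells marked), so no doublets were removed. Intervals are exact, at 95%. Named genes were the 7, up to 4 called genes per related list and comparison with the smallest adjusted p, and set markers; not all that the rule names are printed. Median changes by gene span and the joint goblet-like and Paneth-like class were added after seeing the data.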

Additional observations from a re-analysis of the deposited data

How the results depend on the processing

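Of 462 recomputed differences (a gene in a comparison under another setting), 380 kept their direction and side of the threshold, 45 lost a call, 25 gained one and 12 changed sign. At day 21 against day 9, 3 of the 7 genes were called, 5 under library-size scaling and 6 with no filter on low counts. At day 30 against day 9, 2 were called, 1 with the replicate block and 0 without the day 14 libraries. At day 14 against day 9, 2 were called, and 4 with only those 2 days. At day 30 against day 21, 0 were called, and 1 by DESeq2. Leaving out 1 library gave 1 to 4 (day 14 against day 9), 1 to 5 (day 21 against day 9), 0 to 3 (day 30 against day 9), 3 to 6 (day 21 against day 14) and 0 to 3 calls (day 30 against day 21). Log2 differences that changed sign, none of them called in the main result, were Clca3 at day 30 against day 9 under library-size scaling (0.14) and Zg16 at day 30 against day 21 with the replicate block (0.19). Over the leave-one-out fits the ranges were -0.20 to 0.067 (Clca3), -0.17 to 0.10 (Tff3) and -0.26 to 0.19 (Spink4) at day 14 against day 9, and -0.17 to 0.095 (Clca3) at day 30 against day 9. For Agr2 they were -0.0068 to 0.90 at day 21 against day 9 and -0.34 to 0.57 against day 14. At day 30 against day 21 they were -0.27 to 0.94 (Fcgbp), -0.41 to 0.14 (Spink4), -0.69 to 0.046 (Muc2) and -0.90 to 1.17 (Zg16), whose value without day 21 replicate 2 passed the test (edgeR adjusted p = 0.0116).

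The replicate numbers did not pair the samples (correlations of same-numbered libraries -0.02 to 0.05). Over all genes, 2974 were called at day 21 against day 9 and 1511 at day 30 against day 9, and 1689 and 764 with the replicate block. At day 30 against day 21 there were 0, and 36 without a filter, 22 with the block, 299 by DESeq2 and up to 335 with 1 library left out; at day 30 against day 9 one library left out gave 875 to 1832. With library-size scaling 2377 were called at day 30 against day 9, and the split at day 21 against day 9 went from 1096 higher and 1878 lower to 2827 and 1010 (day 30: 539 and 972 to 1729 and 648; day 21 against day 14: 4328 and 4281 to 5159 and 3344). Library-size scaling moved the median gene by about 0.2 (log2) upward at days 21 and 30.

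No goblet-like share could be given at resolution 0.5, with the 7 genes among the clustering genes, or at a minimum of 5000 UMIs: goblet-like and Paneth-like cells then formed 1 cluster, which the marker rule named Paneth-like. The 2 classes joined, a measure chosen after seeing the data, were 10.5% of day 16 cells, and 9.10% at resolution 0.5 and 9.25% with the 7 genes included. With at most 10% mitochondrial UMIs, applied to the shares after seeing the data, the goblet-like share of day 16 went from 9.39% to 24.1% and the joint share to 27.4%, and at day 7 the joint share went from 3.63% to 4.54%. The cause of these changes was not tested.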
